A study of Mus musculus with 48 samples.

Results

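Il1rl1, which encodes the receptor for interleukin-33, is annotated on the plus strand of mouse chromosome 1 (GRCm38) with its start at 40429570 and its end at 40465415. The genes around it were examined: those on chromosome 1 whose first annotated base lies from 30430000 to 50430000 and whose counts sum to at least 50 over 24 RNA-seq libraries. The window held 359 annotated genes, 254 of them with a count and 105 with 50 counts or more. After 12 were left out by name (those beginning with Il1, Slc, Rpl, or Cox, and Zap70), 93 flanking genes remained of the 15871 genes with 50 counts or more and the 54735 genes counted in the whole series. Of the 93, 67 start at lower coordinates than Il1rl1 (called proximal here) and 26 at higher coordinates (distal). They comprised 60 protein-coding genes and 33 of other kinds, among them 15 TEC entries (annotated stretches still to be experimentally checked), 5 processed pseudogenes, and 4 lincRNAs. The nearest flanking genes start 0.192 Mb before and 0.343 Mb after the Il1rl1 start, and the farthest 9.63 Mb before and 8.03 Mb after it.

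Splenic monocytes (Ly6Glo CD11bhi F4/80-), pre-RPMs (Ly6Glo CD11bhi F4/80lo), and red pulp macrophages (RPMs; Ly6Glo CD11blo/- F4/80hi) were sorted from male Balb/c mice aged 10 weeks, either WT or labelled IL1RL1-/- on the Balb/c background. Each of 4 mice per genotype gave 1 library per cell type, so that the 3 libraries of a mouse share an animal. The labels name no treatment, Cre driver, or transgene, and the strain in which the allele was made is not given in the sources used here. The question for the flanking genes was whether their RNA differed between genotypes and whether a difference depended on the distance to Il1rl1. Total counts ran from 3562367 to 6559454 per library (median 4728764), and the flanking genes took between 0.158% and 0.323% of them. A count of 3, the upper limit that a count of 0 allows, corresponds to between 0.457 and 0.842 CPM (the count of a gene scaled to a common library size), for counting error only.

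The labels did not match the targeted gene in every cell type. Il1rl1 had 12 to 28 counts in WT monocytes and 51 to 73 in the monocytes labelled IL1RL1-/-, and 13 to 24 against 42 to 76 in pre-RPMs, whereas in RPMs it had 5 to 13 in WT and 1 to 7 in the labelled mice. Counts are over all its exons, so they do not show whether the deleted part is transcribed. The genotype is therefore given as labelled throughout. The 7 RPM markers (among them Spic, Vcam1, and Cd5l) set RPMs apart, with summed levels of 3450 to 4795 CPM in RPMs and 35.4 to 248 CPM in the other libraries, with Cd5l at 0 in all monocyte libraries labelled IL1RL1-/-. The 5 monocyte markers did not set monocytes apart, since they summed to 504 to 2875 CPM in monocytes, 1848 to 3191 in pre-RPMs, and 1363 to 1753 in RPMs. The 5 neutrophil markers summed to 549 to 1886 CPM in monocytes, a level like that of the monocyte markers there, and to 64.8 to 240 in pre-RPMs and 0.881 to 10.6 in RPMs. The 6 NK cell markers summed to 476 to 1792 CPM in monocytes, and to at most 134 CPM in the other libraries. In such bulk samples, fewer cells of a type and less RNA per cell cannot be told apart.

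Genes close to a targeted allele are inherited with it. When an allele made in embryonic stem cells of another strain is backcrossed, the chromosome segment around it keeps that strain's variants for many generations, and such flanking genes can differ between a mutant and its control without any role of the mutated gene. Whether the segment differs in sequence between these mice was not tested. Il1rl1 also sits in a cluster of related receptor genes (among them Il1r1, Il18r1, and Il18rap), and the segment beyond it holds genes for the cytoskeleton, glycosylation, translation, and signalling. RPMs are the resident macrophages of the spleen that take up aged red blood cells and return their iron to the circulation.

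Of the 3 flanking genes called between genotypes in any cell type, Bend6 and Dst are neighbours on the proximal side (−6.58 and −6.52 Mb from the Il1rl1 start), and Gm38070 lies within Il1r1 (−0.192 Mb). Bend6 (33852052 to 33907816, minus strand), a BEN domain protein that acts on transcription, and Dst (33908225 to 34308661, plus strand), the plakin dystonin that links actin, intermediate filaments, and microtubules, start back to back, 409 bp apart on opposite strands. The stretches upstream of both starts are shown because the 2 genes share them. Each is the 250 bases before the annotated start, read 5′ to 3′ on the strand of the gene from GRCm38.p6 (chr1:33907817-33908066, minus strand, for Bend6; chr1:33907975-33908224, plus strand, for Dst). The 2 stretches overlap by 92 bases, and capitals mark the letters GGGCGG or the same letters on the other strand (CCGCCC), the GC box.
Bend6: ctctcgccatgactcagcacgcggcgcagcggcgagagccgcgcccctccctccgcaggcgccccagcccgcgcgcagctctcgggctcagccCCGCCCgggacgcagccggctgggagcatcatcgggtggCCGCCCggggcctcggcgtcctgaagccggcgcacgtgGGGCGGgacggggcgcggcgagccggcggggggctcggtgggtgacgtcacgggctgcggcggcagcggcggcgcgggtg
Dst: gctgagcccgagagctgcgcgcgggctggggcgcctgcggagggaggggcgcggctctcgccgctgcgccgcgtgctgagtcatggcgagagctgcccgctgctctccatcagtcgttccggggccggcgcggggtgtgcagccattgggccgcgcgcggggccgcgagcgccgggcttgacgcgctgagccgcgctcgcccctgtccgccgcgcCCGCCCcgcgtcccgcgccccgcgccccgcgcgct

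The letters GGGCGG occurred at 3 places before Bend6 and at 1 before Dst, and in 32.7% of the 250-base stretches before all 32851 starts in the RefSeq promoter table of the same build. The 408 bases between the 2 starts held 74 CG dinucleotides, and the G and C content of both printed stretches was 81.2%. Neither stretch held GAGGAA, a core of ETS family motifs, on either strand (23.3% of all such stretches did), or TATAAA (12.4%). The letters TGAGTCA, searched after the stretches had been read, occurred in the part that both share and in 4.46% of all such stretches. The promoter table matched 54 of the 93 flanking genes, with 72 starts, of which 55.6% had GGGCGG, 13.9% GAGGAA, 6.94% TATAAA, and 1.39% TGAGTCA. These are matches of letters and not sites of binding.

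In RPMs, Bend6 RNA was higher in the mice labelled IL1RL1-/-. RPMs of WT mice 1 to 4 held 26, 24, 27, and 28 counts, and RPMs of labelled mice 1 to 4 held 99, 105, 78, and 78, or 6.04 ± 1.03 and 18.4 ± 2.64 CPM (mean ± SD, n = 4, with TMM factors over the 24 libraries). All 4 labelled libraries lay above all 4 WT libraries. The log2 fold change was 1.60 (SE 0.17, adjusted p = 0.000829, by the quasi-likelihood test of edgeR, adjusted after Benjamini and Hochberg over all genes tested), and it stayed past the threshold of 0.05 with each of the 8 libraries left out. In monocytes, Bend6 had 6 to 20 counts in WT and 7 to 12 in the labelled libraries, and in pre-RPMs 7 to 17 and 6 to 22, so that the groups overlapped in both, at counts too low for the filter of either comparison. Bend6 therefore was not tested there, and the difference between its genotype changes in RPMs and pre-RPMs was 1.67 (SE 0.42, adjusted p = 0.183).

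The mean of Dst in the labelled libraries lay above that of WT in all 3 cell types, at very different levels, and passed the test in pre-RPMs. RPMs held 2207, 2276, 1650, and 2390 counts in WT mice against 2965, 4514, 3363, and 3141 in labelled mice, or 443 to 554 against 668 to 741 CPM. Pre-RPMs held 31, 30, 64, and 54 against 90, 131, 60, and 133, or 7.24 to 15.7 against 17.9 to 24.9 CPM. Monocytes held 42, 41, 26, and 47 against 60, 40, 83, and 62, or 5.99 to 8.22 against 8.44 to 17.9 CPM. The groups did not overlap in CPM in any cell type, although in monocytes and pre-RPMs some counts did. The log2 fold change was 0.99 in pre-RPMs (SE 0.20, adjusted p = 0.0367), 0.54 in RPMs (SE 0.11, adjusted p = 0.0677), and 0.95 in monocytes (SE 0.23, adjusted p = 0.776), so that by edgeR only that in pre-RPMs passed. The 3 values come from the same mice and are not independent, and the exact 2-sided permutation test of log2 CPM gave p = 0.0286 in each, the smallest that 4 against 4 libraries allow.

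The call of Dst depended on the fit. In RPMs, the mouse number as a block gave Dst an adjusted p of 0.0219, although same-numbered libraries of the genotypes are different mice. DESeq2 gave an adjusted p of 9.41e-07 there. In pre-RPMs, Dst was called in each of the other 6 fits with all libraries, but when 1 library was left out it was called only without WT mouse 3 (adjusted p = 0.00535) or labelled mouse 3 (adjusted p = 0.0394). Without any of the other 6 libraries, its adjusted p ran up to 0.122. The interaction of genotype and cell type was not called for Dst (RPMs minus pre-RPMs, −0.44, SE 0.24, adjusted p = 0.72), so its change was not shown to differ between cell types.

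When the 3 libraries of each mouse were summed, which raises the counts and keeps the mouse as the replicate, Bend6 and Dst were the 2 flanking genes called among 82 tested, both higher, against 0.242% of all 14438 genes tested (0.145% called higher). The log2 fold change of Bend6 was 1.23 (SE 0.16, adjusted p = 0.01) and that of Dst 0.71 (SE 0.10, adjusted p = 0.0118). Nearly all Dst counts in a sum come from RPMs (in WT mouse 1, 2207 against 42 in monocytes and 31 in pre-RPMs). Most Bend6 counts of labelled mice do as well (in labelled mouse 1, 99 against 12 and 11). For these genes, the sums therefore largely repeat the RPM libraries and are not a separate result. Bend6 was called with each mouse left out, whereas Dst was not called without WT mouse 1 (adjusted p = 0.0696) or without labelled mice 2 (0.0521) or 3 (0.0532). With the mouse number as a block, 5 flanking genes were called, since Gm38070 (adjusted p = 0.0225), Aff3 (0.0443), and Gm37067 were added, and the block called 1.84% of all genes. Gm37067 is a member only through the labelled RPMs, where it is higher, so its call is no support for a difference.

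Other annotated entries lie inside the pair and share their strand. Gm37067, a TEC entry within Bend6, had 2, 0, 2, and 3 counts in WT RPMs and 10, 12, 10, and 11 in the labelled RPMs, and at most 1 count in any library of the other cell types. It reached the minimum of 50 counts only through the labelled RPMs, which hold 43 of its 51, so these counts are a description. Gm37354 and Gm38157, TEC entries within Dst, had 18 to 48 and 7 to 28 counts in WT RPMs and 39 to 52 and 25 to 52 in the labelled RPMs, with groups that overlap. Reads within these entries cannot be told apart from unspliced RNA of their host genes.

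**Figure D1:**
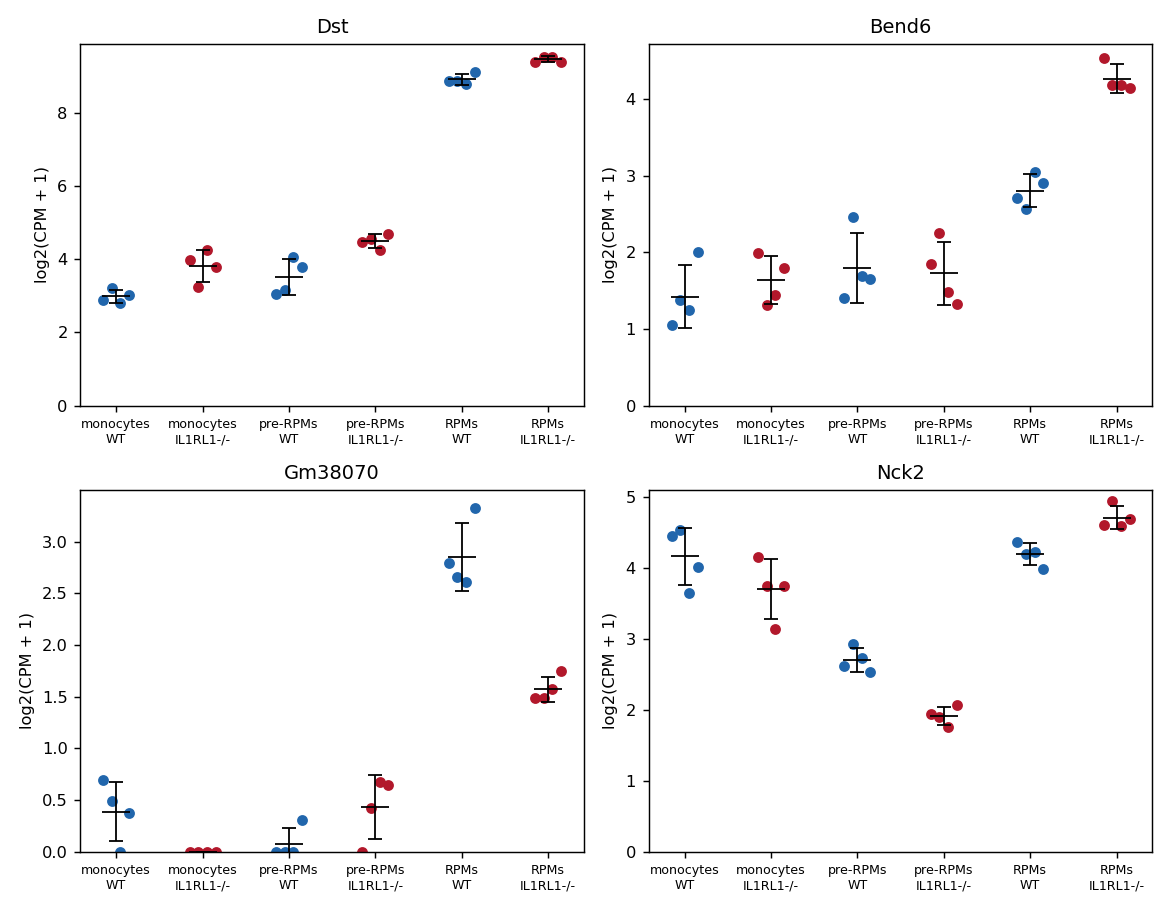
Expression of Dst, Bend6, Gm38070, and Nck2 in each library, as log2(CPM + 1), for 3 cell types of WT mice (blue) and of mice labelled IL1RL1-/- (red); black bars give the mean ± SD of 4 libraries. In RPMs, the labelled libraries lie above all WT libraries for Dst, Bend6, and Nck2 and below them for Gm38070, while for Nck2 in pre-RPMs they lie below.

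Levels of other cell markers moved with some of these differences. In RPMs, the summed RPM markers were 3450 to 4557 CPM in WT and 4697 to 4795 in the labelled libraries without overlap, although 0 of the 7 were called between genotypes (2 at an unadjusted p under 0.05), and the summed neutrophil markers were 9.79 to 10.6 against 0.881 to 3.38 CPM, with Ly6g at 0 in the labelled RPMs and the 1 neutrophil marker tested called lower (log2 fold change −2.51). In pre-RPMs, the RPM markers overlapped (136 to 248 against 145 to 182 CPM), whereas the 6 NK cell markers summed to 65.5 to 134 CPM in WT and 12.9 to 48.2 in the labelled libraries, with 3 of the 4 tested called lower, and 2 of 5 B cell markers were called lower. The 6 basophil and mast cell markers in pre-RPMs also did not overlap, at 11.1 to 56.8 CPM in WT and 3.32 to 5.11 in the labelled libraries, with Fcer1a at 0 in the latter and 1 of 2 tested called lower. Neutrophil markers in pre-RPMs went the other way, at 64.8 to 143 CPM in WT and 107 to 240 in the labelled libraries (median log2 fold change 0.66, 3 of 4 at an unadjusted p under 0.05 by edgeR). The summed plasma cell markers in RPMs were 53.8 to 186 CPM in WT and 10.4 to 70.5 in the labelled libraries. In monocytes, all 4 plasma cell markers reached that p (median 1.06), and 4 of 5 B cell markers did in RPMs (median −0.90), with 0 called in either. In RPMs, 2 of 3 monocyte markers tested (median −1.19, although their sums overlapped) and 2 of 3 T cell markers tested (median −1.11) also did. So did 2 of 5 basophil and mast cell markers tested in monocytes (median −1.115), with 0 called in these 3 lists. The part of these markers in the values of Bend6, Dst, Gm38070, and Nck2 was not tested.

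Across the whole window, few flanking genes differed between genotypes. In monocytes, 0 of the 62 tested were called by edgeR (0.0614% of all 11405 genes were), and 3 had an unadjusted p under 0.05. DESeq2 also called 0 of them. In pre-RPMs, 1 of 57 was called, Dst (0.552% of 10698 genes), and in RPMs 2 of 66, Bend6 and Gm38070 (0.233% of 11150 genes, 0.152% higher and 0.0807% lower). Gm38070 passed the filter only through the WT RPMs, where it is higher. With the mouse number as a block, 3 were called in RPMs, Dst being added (0.726% of all genes). The CPM of the genotypes did not overlap for 2 of 62 flanking genes in monocytes (2.32% of all genes tested), for 7 of 57 pre-RPM values (4.97%), and for 9 of 66 RPM values (4.37%). Of the 93, 56 were tested in all 3 cell types and 23 in none, for want of counts, and 48 of the 60 protein-coding genes but 8 of the 33 others were among the 56.

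An unadjusted p under 0.05 was reached in monocytes by 3 of 62 flanking genes (4.84%, against 3.59% of all genes tested) and in pre-RPMs by 6 of 57 (10.5% against 8.8%). In RPMs it was reached by 13 of 66 (19.7% against 7.27%), and in the sums per mouse by 14 of 82 (17.1% against 8.12%). The 13 in RPMs were 4 higher and 9 lower. Among the lower ones is Gm38070, which passed the filter only through the WT RPMs, where it is higher. The 82 tested in the sums include Gm37067, a member only through the labelled RPMs, where it is higher. Such entries are no support for a difference, and the shares contain them. The rest of chromosome 1 had shares of 5.75% for monocytes, 13.4% for pre-RPMs, 9.49% for RPMs, and 11.2% for the sums. In pre-RPMs and monocytes, the share of the flanking genes was therefore below that of the rest of the chromosome, and in RPMs and the sums above it. Genes share libraries, so that these shares are descriptions. With their log2 fold changes, the 13 were, from the proximal end, Bend6 (1.60), Dst (0.54), Fam168b (−0.43), Plekhb2 (−0.30), Gm33280 (−0.37), Arid5a (−0.59), Cnnm3 (0.36), Aff3 (−0.81), Tbc1d8 (−0.32), Cnot11 (−0.39), Map4k4 (−0.40), Gm38070 (−1.68), and Nck2 (0.53).

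**Figure D2:**
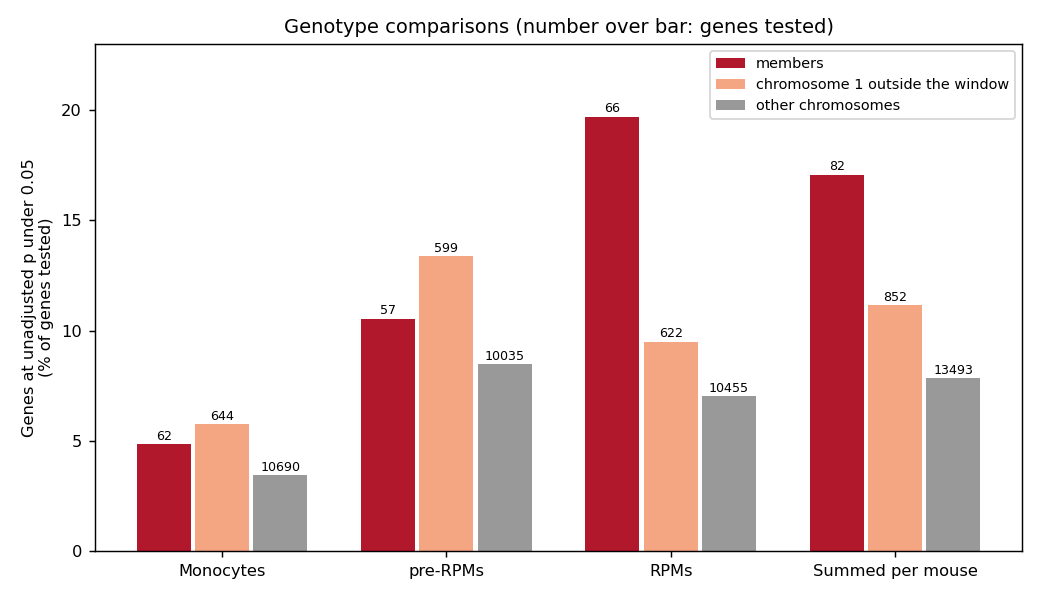
Share of genes tested with an unadjusted p under 0.05 between genotypes (y axis, percent), for the flanking genes (members, red), genes of chromosome 1 outside the window (orange), and genes of other chromosomes (grey); the number over a bar is the number of genes tested. The flanking genes reach 19.7% in RPMs, against 9.49% and 7.03% of the other sets, and lie below the rest of chromosome 1 in monocytes and pre-RPMs. The RPM bar includes Gm38070, which passed the filter only through the WT RPMs, where it is higher. The bar of the sums includes Gm37067, a member only through the labelled RPMs.

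The flanking genes had a median absolute log2 fold change of 0.13 (monocytes), 0.18 (pre-RPMs), and 0.15 (RPMs), against 0.14, 0.13, and 0.13 over all genes tested. The median signed value was −0.05, −0.05, and 0.04. An absolute log2 fold change above 1 was reached by 0, 0, and 2 flanking genes in the 3 cell types. Of the 56 tested in all 3, 25 (44.6%) had log2 fold changes of the same sign in each, against 30.9% of 9807 genes, but the libraries of the 3 cell types come from the same mice.

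Across flanking genes, Spearman's rho of the absolute log2 fold change with the distance was 0.03 for monocytes (62 genes), 0.09 for pre-RPMs (57 genes), 0.02 for RPMs (66 genes), and 0.13 for the sums (82 genes), given as descriptions without a p, since the genes share libraries. Within 1 Mb of Il1rl1 lie 9 of the 93 genes, of which monocytes had 0 of 5 tested called, pre-RPMs 0 of 5, and RPMs 1 of 7 (Gm38070, which passed the filter only through the WT RPMs). Between 1 and 2.5 Mb, 0 were called of 9, 8, and 8. Between 2.5 and 5 Mb, where 45 of the 93 genes lie, 0 were called of 31, 28, and 31, and between 5 and 10 Mb 0, 1, and 1 of 17, 16, and 20. Calls made up 0.0614% (monocytes), 0.552% (pre-RPMs), and 0.233% (RPMs) of all genes tested. At shares this low, groups of so few genes would mostly hold 0 calls wherever they lie. The calls per group therefore cannot decide whether a call depends on distance. Of the 28 genes of the 5 to 10 Mb group, 6 are distal, and 1 of those was tested in each cell type. The median absolute log2 fold change in RPMs was 0.39 within 1 Mb (7 genes), 0.11 from 1 to 2.5 Mb, 0.13 from 2.5 to 5 Mb, and 0.19 from 5 to 10 Mb. An unadjusted p under 0.05 was reached in RPMs by 3 of 7 genes within 1 Mb (42.9%), 2 of 8 from 1 to 2.5 Mb (25%), 4 of 31 from 2.5 to 5 Mb (12.9%), and 4 of 20 from 5 to 10 Mb (20.0%). The 3 within 1 Mb include Gm38070, which entered the test only through the WT RPMs, where it is higher, and which also enters the median of 0.39. In the sums, the shares in the same order were 37.5%, 9.09%, 10.5%, and 24%, the first from 8 genes. The genes tested there from 5 to 10 Mb include Gm37067, a member only through the labelled RPMs, where it is higher. Within 1 Mb, 0 of 5 genes reached it in monocytes and 0 of 5 in pre-RPMs.

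By side, 1 of 11 distal genes tested in pre-RPMs was higher in the labelled libraries (median log2 fold change −0.15) and 26 of 46 proximal genes were (median 0.06). In monocytes, 5 of 14 distal and 18 of 48 proximal genes were higher (median −0.05 on both sides), among them 0 of the 7 proximal genes from 1 to 2.5 Mb. In RPMs, 8 of 13 distal and 31 of 53 proximal genes were higher (median 0.04 on both sides). Genes of a side share libraries, and whether the sides differ was not tested.

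**Figure D3:**
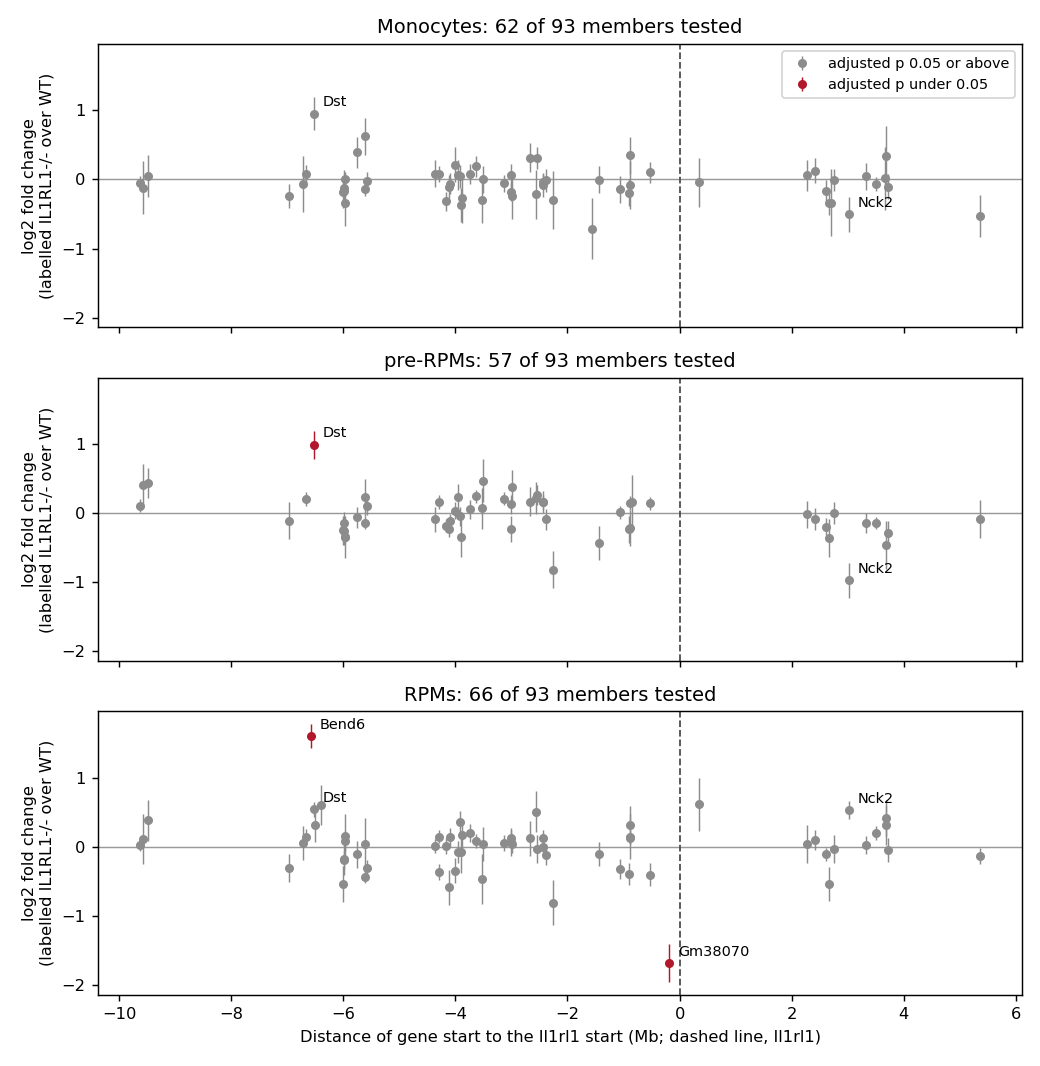
Log2 fold change of each flanking gene tested (libraries labelled IL1RL1-/- over WT; bars, SE) against the distance of its start to the Il1rl1 start in Mb, in monocytes, pre-RPMs, and RPMs; red, adjusted p under 0.05. Values lie on both sides of 0 on the proximal side, 1 of 11 distal genes lies above 0 in pre-RPMs, and the called genes lie at −6.58 Mb (Bend6), −6.52 Mb (Dst), and −0.192 Mb (Gm38070).

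Of the 4 flanking genes nearest to Il1rl1 on each side, with Slc9a2 and the receptor genes of the Il1rl1 cluster not among the members, 1 was called. On the proximal side, these were Gm38070 (−0.192 Mb), the kinase gene Map4k4 (−0.529 Mb), Creg2 (−0.811 Mb), which encodes a secreted glycoprotein, and the snoRNA Gm23722 (−0.856 Mb), which lies within Rnf149 on the same strand. On the distal side, they were Mfsd9 (0.343 Mb), a putative transporter, Pou3f3 (2.27 Mb), a transcription factor, Mrps9 (2.42 Mb), a subunit of the mitochondrial ribosome, and Tgfbrap1 (2.62 Mb), a vesicle tethering factor. Gm38070 alone of these 8 was called between genotypes, in RPMs (0.233% of all genes tested there were), where it passed the filter only through the WT libraries. Map4k4, the most abundant of them, had 157 to 190 CPM in WT pre-RPMs and 173 to 202 in labelled pre-RPMs, and 27.4 to 43.1 against 19 to 28.4 CPM in RPMs (log2 fold change −0.40, SE 0.17, adjusted p = 0.658). Creg2 was at 0 to 3 counts in all 16 libraries of monocytes and pre-RPMs, and had 6, 7, 13, and 7 counts in WT RPMs against 3, 1, 4, and 1 in labelled RPMs, below the filter. Mfsd9 spread widely in WT RPMs, with 5, 17, 24, and 27 counts, and the labelled RPMs (27, 38, 24, and 39) overlapped them in CPM. Pou3f3, Mrps9, and Tgfbrap1 overlapped between genotypes in monocytes, with log2 fold changes of 0.06, 0.13, and −0.16, and had absolute values of at most 0.20 in the other cell types.

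Gm38070 (40238020 to 40244499, plus strand), a TEC entry within Il1r1 on the same strand, had 28, 26, 19, and 39 counts in WT RPMs and 8, 11, 9, and 11 in labelled RPMs, or 5.1 to 9.04 against 1.8 to 2.35 CPM. All labelled libraries lay below all WT libraries. Its log2 fold change in RPMs was −1.68 (SE 0.28, adjusted p = 0.0204). Gm38070 entered the test only through the WT RPMs, where it is higher, since its 8 to 11 counts in labelled RPMs lie close to the limit of the filter. The call is therefore given as a description. Gm38070 was not kept with at least 10 counts in every library. When 1 library was left out, it was called only without WT mouse 2 (adjusted p = 0.0421) or WT mouse 3 (0.0244), and its adjusted p ran up to 0.0909 without any of the others. With all 24 libraries in 1 fit the adjusted p was 0.0523. Its host Il1r1, a receptor for interleukin-1 that the choice of genes left out by name, had 11.3 to 19 CPM in WT RPMs and 4.27 to 5.78 in labelled RPMs (log2 fold change −1.53, SE 0.21, adjusted p = 0.00501). Since the entry lies within the host on its strand, the 2 values are not independent.

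Nck2 (43444579 to 43570515, plus strand, 3.02 Mb distal), an adaptor with SH2 and SH3 domains that couples tyrosine kinases to the actin cytoskeleton, lay on opposite sides of WT in pre-RPMs and RPMs, and the difference between the cell types passed the test. WT pre-RPMs held 22, 25, 23, and 20 counts and labelled pre-RPMs 12, 16, 8, and 17, or 4.78 to 6.59 against 2.39 to 3.18 CPM. WT RPMs held 92, 85, 66, and 64 and labelled RPMs 103, 180, 105, and 116, or 14.8 to 19.6 against 23.1 to 29.6 CPM. The labelled libraries were all below WT in pre-RPMs and all above it in RPMs. Neither change was called, with log2 fold changes of −0.97 (SE 0.25, adjusted p = 0.121) and 0.53 (SE 0.13, adjusted p = 0.20). The difference between them was called, at 1.51 (SE 0.24, adjusted p = 0.00702), and Nck2 was the only one called of 70 flanking genes tested for this interaction (0.107% of 12150 genes). This fit took the 16 libraries as independent, although the pre-RPMs and RPMs of a mouse share an animal. The call held with each of 16 libraries left out (adjusted p up to 0.0245), but not with all 24 libraries in 1 fit (adjusted p = 0.192). In monocytes, the groups overlapped, with 50 to 135 counts in WT and 36 to 68 in labelled mice (log2 fold change −0.51, SE 0.26, adjusted p = 0.997).

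The changes of Nck2 in RPMs and monocytes differed by 1.05 (SE 0.29, adjusted p = 0.5). For pre-RPMs against monocytes, 0 of 67 flanking genes were called by edgeR and 0 by DESeq2 (0.0% of 11960 genes by edgeR), and 1 had an unadjusted p under 0.05 (3.8% of all genes). For RPMs against monocytes, 0 of 73 were called by edgeR and 0 by DESeq2 (0.0318% of 12592 genes by edgeR), and 2 had an unadjusted p under 0.05 (4.84% of all genes). For RPMs against pre-RPMs, 9 of 70 had one (7.52% of all genes).

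By role, genotype calls fell on single genes and not on groups. Of the genes for transcription and chromatin, 7 were flanking genes and all 7 were tested in RPMs, where Bend6 was called higher and 0 lower. The most abundant were Zfp451, a SUMO ligase, with 29 to 32.2 CPM in WT RPMs and 27.1 to 38.6 in labelled RPMs, and Kansl3, a subunit of a histone acetylation complex, with 22.8 to 35.7 against 28.2 to 36.5. Of the 4 flanking genes for cytoskeleton, matrix, and guidance, Dst was called in pre-RPMs, and 0 of 3 tested were called in RPMs, where Dst was called with the block. Actr1b, a dynactin subunit, had 13.4 to 17 CPM in WT RPMs and 16.1 to 18.7 in labelled RPMs.

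Of the 9 flanking genes for the secretory pathway and glycosylation, 0 were called, with 8 tested in monocytes and 7 each in pre-RPMs and RPMs. Among them, Uggt1, the folding sensor of the endoplasmic reticulum, had 62.4 to 75.9 CPM in WT RPMs and 70.2 to 80.2 in labelled RPMs. Tmem131, which acts in collagen secretion, had 91.7 to 116 CPM in WT pre-RPMs and 118 to 135 in labelled pre-RPMs without overlap (log2 fold change 0.24, SE 0.09, adjusted p = 0.452). Of the 9 for mitochondria and protein synthesis, 0 were called of 8 in each cell type. Eif5b, which joins the ribosomal subunits at initiation, had 124 to 145 CPM in WT RPMs and 125 to 138 in labelled RPMs, and Coa5, an assembly factor of cytochrome oxidase, had 29.6 to 37.8 against 29.9 to 38.

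Of the 11 flanking genes for signalling and trafficking, 0 were called of 11, 10, and 11 tested. Arhgef4, an exchange factor for small GTPases, had 234 to 359 CPM in WT RPMs and 198 to 366 in labelled RPMs, and Rnf149, a ubiquitin ligase, had 148 to 158 against 152 to 174. Ptpn18, a tyrosine phosphatase, had 65.1 to 72.5 CPM in WT pre-RPMs and 49.9 to 56.9 in labelled pre-RPMs without overlap, which did not pass the test (log2 fold change −0.35, SE 0.09, adjusted p = 0.112). Of the 2 genes for DNA replication and repair, Prim2 and Rev1, and the 3 for metal and ion transport, Cnnm3, Cnnm4, and Mfsd9, 0 were called in any cell type. Cnnm3, a magnesium transport protein, had 9.66 to 15.5 CPM in WT RPMs and 16.2 to 19.4 in labelled RPMs (log2 fold change 0.36, SE 0.15, adjusted p = 0.658), and its relative Cnnm4 had 11.3 to 16.9 against 11.3 to 14.1. Of the 15 protein-coding flanking genes in none of these lists, 0 were called. Fam168b, named after its values were seen, came closest in RPMs, with 80 to 92.2 CPM in WT and 59.9 to 72 in labelled RPMs (log2 fold change −0.43, SE 0.09, adjusted p = 0.138), and DESeq2 gave it 0.0254.

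Per kilobase of exons, the 5 highest flanking genes over all libraries were Rnf149 (52.4 CPM per kb), the processed pseudogene Gm8210 (42), Arhgef4 (33.7), the snoRNA Snord89 (27.4), and Neurl3 (21.4), a ubiquitin ligase. Reads of Gm8210 may come from the gene it was copied from, and Snord89 lies within Gm15832 on the same strand, so both values are uncertain. Dst, whose exons add up to 41155 bases, stood at 5.03 CPM per kb over all libraries and Bend6 at 1.63.

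From monocytes to pre-RPMs in WT mice, 1 of 59 flanking genes passed an adjusted p under 0.01 with an absolute log2 fold change above 1 (3.57% of all 11091 genes did). This was Nck2, with 135, 110, 50, and 101 counts in monocytes and 22, 25, 23, and 20 in pre-RPMs of the same mice (log2 fold change −1.66, SE 0.23, adjusted p = 0.00127). With the mouse as a block, which pairs libraries of the same animal, Tbc1d8 was also called (log2 fold change 1.00, adjusted p = 0.00709), and 4.54% of all genes were. Without the monocytes of WT mouse 3 the count was 7, and without the pre-RPMs of WT mouse 3 it was 2, where the share over all genes is not given here.

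From pre-RPMs to RPMs in WT mice, 18 of 63 flanking genes were called, 13 higher and 5 lower (24.7% of all 11239 genes were called, 14.0% higher and 10.7% lower). The 13 include genes, named below, that passed the filter only through the RPMs, where they are higher. Dst rose most among protein-coding genes, from 30 to 64 counts in pre-RPMs to 1650 to 2390 in RPMs (log2 fold change 5.41, SE 0.22, adjusted p = 2.55e-10). A further 3 entries rose from next to nothing. The lincRNA Gm33280 (36132042 to 36138746, plus strand) had 0, 1, 1, and 1 counts in WT pre-RPMs and 139, 145, 102, and 135 in WT RPMs, a ratio of 161 (95% exact interval 54.7 to 782). Gm37354, within Dst, had 1 count in all against 127 (ratio 118, 20.7 to 4680), and Gm38070, within Il1r1, 1 against 112 (ratio 104, 18.2 to 4130). These intervals cover counting error only. All 3 entries passed the filter only through the RPMs, where they are higher, so their calls and ratios are a description. In labelled RPMs, Gm33280 had 120, 140, 89, and 105 counts, or 19.6 to 27 against 27.4 to 31.3 CPM in WT (log2 fold change −0.37, SE 0.11, adjusted p = 0.446).

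Among the other genes called higher in RPMs were Sema4c, a semaphorin (log2 fold change 2.73), Hs6st1, which sulfates heparan sulfate (2.54), Wdr75, a factor of ribosome assembly (2.49), Mgat4a, which branches N-glycans (2.11), Nck2 (1.60), and Eif5b (1.24), with adjusted p between 2.35e-09 and 0.000167. Hs6st1 went from 19.4 to 27.7 CPM in WT pre-RPMs to 119 to 149 in WT RPMs, and Wdr75 from 3.95 to 5.9 to 25.6 to 28.8. Bend6 also was called higher (log2 fold change 1.16, SE 0.31, adjusted p = 0.00623), but not by DESeq2 (adjusted p = 0.0105), and it was called with 1 library left out only without the pre-RPMs or the RPMs of WT mouse 2. The other 2 called higher were Plekhb2 (1.32) and Snord89 (1.42), the latter lost without the pre-RPMs of WT mice 1 or 4 or the RPMs of mouse 4 (adjusted p up to 0.0133). Sema4c, Bend6, and Snord89 also passed the filter of this step only through the RPMs, so their calls too are a description.

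Of the 5 called lower in WT RPMs, 4 are among the 11 genes for signalling and trafficking (of which Nck2 alone was called higher), and Arid5a is among the 7 for transcription. Map4k4 fell from 157 to 190 CPM in pre-RPMs to 27.4 to 43.1 in RPMs (log2 fold change −2.42, SE 0.15, adjusted p = 8.83e-09). Arid5a, which stabilises cytokine transcripts, fell from 32.9 to 44 to 6.44 to 14.9 CPM (−1.99), and Tbc1d8, a Rab GTPase activating protein, from 69.3 to 89.6 to 19.6 to 26 CPM (−1.90). Ptpn18 fell by 1.36 and Neurl3 by 1.18 on the log2 scale. For all 5, the pre-RPM and RPM libraries did not overlap, as was so for 46.6% of all 11239 genes tested and 30 of the 63 flanking genes. Between genotypes in RPMs, Arid5a, Map4k4, and Tbc1d8 had log2 fold changes of −0.59, −0.40, and −0.32, with overlapping groups and adjusted p = 0.658 each, and that comparison shares the WT RPM libraries.

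**Figure D4:**
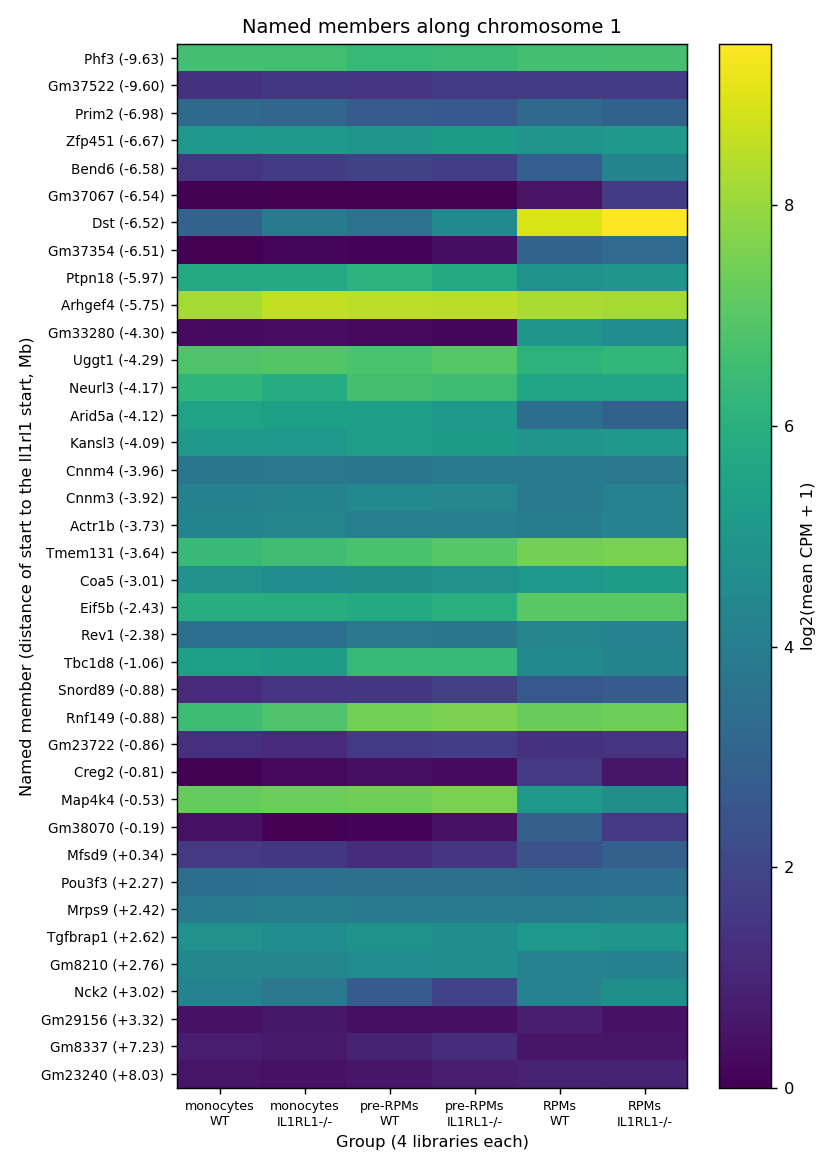
Mean expression of the 38 named flanking genes in order of position (rows, with the distance to the Il1rl1 start in Mb) and the 6 groups of 4 libraries (columns), as log2(mean CPM + 1); colours compare groups within a row, since CPM is not corrected for gene length. Dst, Gm37354, Gm33280, and Gm38070 are higher in both RPM columns than in the other 4, and Map4k4 and Arid5a are lower there.

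The ends of the selection were as follows. The 2 genes just inside the minimum of 50 counts were Gm37067 and Gm29156 (51 each), and the 2 just outside were Gm8326 (46) and D430040D24Rik (45). At the proximal end, Phf3, a protein that binds RNA polymerase, and Gm37522 within it were the outermost inside, at 9.63 and 9.6 Mb, and Gm5525 and Lmbrd1 the nearest outside. At the distal end, the snRNA Gm23240 and the pseudogene Gm8337 were the outermost inside, at 8.03 and 7.23 Mb, and Nabp1 and Gm17767 the nearest outside. Phf3 had 91.7 to 109 CPM in WT monocytes and 93.1 to 99.8 in labelled monocytes, and its genotype log2 fold change was between −0.05 and 0.11 in the 3 cell types.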

How the data were processed

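RNA-seq of 24 libraries was used, and the 24 chromatin accessibility samples of the series were not analysed here. The libraries were made with a stranded total RNA kit. The deposited values are whole-number counts of read pairs per gene, which the authors made with STAR 2.5.1 and, per the file headers, featureCounts 1.6.2 with strand over exons joined by gene name of the Ensembl GRCm38 annotation, without normalization or filtering. A gene inside another on the same strand (21 of 93) can hold reads of its host.

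Groups were compared with edgeR 4.0.16 (limma 3.58.1, R 4.3.3) by its quasi-likelihood F test after TMM normalization and filterByExpr, with Benjamini-Hochberg adjustment over all genes tested. Genotype and interaction calls used an adjusted p under 0.05, and cell type calls one under 0.01 together with a log2 fold change above 1 in size. The interaction fits took the libraries of a mouse as independent. CPM used TMM factors over all libraries, and single values an exact 2-sided permutation test, with Python 3.11.15, NumPy 2.4.6, pandas 2.3.3, SciPy 1.17.1, and matplotlib 3.10.9. The alternatives were DESeq2 1.42.0, RLE size factors, other filters, all 24 libraries in 1 fit, the mouse number as a block, and each library left out. Same-numbered libraries of the genotypes are different mice. The deviations of every same-numbered pair from their group means correlated at 0.118 to 0.452 in monocytes, 0.149 to 0.182 in RPMs, and 0.17 to 0.333 in the sums. Libraries of the same WT mouse correlated at 0.0639 to 0.139 between pre-RPMs and RPMs. Pairs of different numbers were not compared, so whether the numbers pair the genotypes was not tested. In the steps between cell types, libraries of the same number come from the same mouse.

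On simulated counts, edgeR recovered 127 of 200 genes changed 2-fold and 191 of 200 changed 4-fold for the genotypes in RPMs (11150 genes), and 88 and 168 in monocytes (11405 genes). In pre-RPMs it recovered 151 and 191 (10698 genes). Of the genes called at 2-fold and 4-fold, 7.3% and 5.91% were false in RPMs and 7.93% and 6.83% in pre-RPMs. They were 3.3% and 5.1% in monocytes and 4.93% and 6.28% in the sums, so most lay above the nominal 5%. Sequences are of GRCm38.p6. The starts of Bend6 and Dst are the outermost ones of the annotation used for the counts, whereas the starts behind the motif shares were taken from the RefSeq promoter table. Whether these cells use the outermost starts was not tested. The flanking genes and all lists were chosen with earlier results of these data known. The genes named are those called between genotypes in any cell type or in the sums, the 4 nearest to Il1rl1 on each side, the 5 highest per kilobase, the 2 most abundant of each list, the 4 largest called rises and falls between WT cell types, and those at the ends of the selection. Genes named beyond this rule, such as Fam168b, Sema4c, and Hs6st1, were picked with their values in view.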

Additional observations from a re-analysis of the deposited data

Results flagged for a closer look

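The Nck2 change between genotypes differed between cell types, by 1.51 on the log2 scale (RPMs minus pre-RPMs, SE 0.24, adjusted p = 0.00702 by edgeR), as a test of the difference itself. The fit took the libraries as independent, although the pre-RPMs and RPMs of a mouse share an animal.

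In 7 of 66 groups of 4 libraries examined for 11 flanking genes, 1 library stood apart from the other 3 by more than Dixon's 95% critical share of the range of the group. Chance gives about 1 in 20. Bend6 in labelled RPMs was highest at 22.3 CPM, with the next at 17.2 CPM. Pou3f3 was highest at 12.8 CPM in labelled monocytes (next 9.15) and at 14.0 CPM in labelled pre-RPMs (next 9.17). Creg2 was highest at 3.49 CPM in WT RPMs (next 1.62). The remaining 3 groups rest on single counts, namely Creg2 in WT monocytes (highest 0.15 CPM, others 0), Creg2 in labelled monocytes (lowest 0.0 CPM, next 0.207), and Gm38070 in WT pre-RPMs (highest 0.239 CPM, others 0). Their causes were not tested.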

How the results depend on the processing

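The flanking genes called are given here out of all genes called in the same fit. Between genotypes, they were 0 of 7 in monocytes (1 of 139 with every gene of at least 1 count). In RPMs, they were 2 of 26 (4 of 60 by DESeq2, 6 of 272 with every gene of at least 1 count, 1 of 19 with at least 10 counts in every library, and 1 of 26 with all 24 libraries in 1 fit). In the sums, they were 2 of 35 (5 of 463 with every gene of at least 1 count, and 5 of 265 with the replicate block). The 5 with the block include Gm37067, a member only through the labelled RPMs, where it is higher. From WT monocytes to pre-RPMs, they were 1 of 396 (3 of 694 by DESeq2, 6 of 1094 with every gene of at least 1 count, 5 of 772 with all 24 libraries in 1 fit, and 2 of 504 with the replicate block). For the interaction of RPMs minus pre-RPMs, they were 1 of 13 (2 of 224 with every gene of at least 1 count, 0 of 5 with at least 10 counts in every library, where Nck2 was not kept, and 0 of 3 with all 24 libraries in 1 fit). For RPMs minus monocytes, they were 0 of 4 (1 of 165 with every gene of at least 1 count). With 1 library left out, the counts of flanking genes ran from 0 to 1 in pre-RPMs, from 1 to 2 in RPMs, from 1 to 3 in the sums, from 1 to 7 from WT monocytes to pre-RPMs, and from 16 to 20 from WT pre-RPMs to RPMs. The counts over all genes in these fits are not given here, so these ranges are descriptions. The causes were not tested. The rank correlations with distance lay between −0.0847 and 0.201 with 1 library left out, on both sides of 0 in each cell type and in the sums. No called value of a named gene changed sign. In pre-RPMs, same-numbered libraries of the genotypes correlated at 0.0452 to 0.155, a range that overlaps that of RPMs (0.149 to 0.182). The block gave 1 call in pre-RPMs as well. The block moved no other count of flanking genes called by over 1.5 times.

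Over all genes, the count of calls depended on the fit. It ran from 3 to 139 in monocytes (7 in the values given first), from 17 to 265 in pre-RPMs (59), from 19 to 272 in RPMs (26), from 29 to 463 in the sums (35), and from 217 to 1094 from WT monocytes to pre-RPMs (396), with the highest count where every gene with at least 1 count was kept. With the replicate block, it was 27 in monocytes, 145 in pre-RPMs, 81 in RPMs, 265 in the sums, 24 for RPMs minus pre-RPMs (13), and 13 for RPMs minus monocytes (4). Depth limits the tests, since 23 of 93 flanking genes were tested in none of the 3 cell types.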
